A study of Mus musculus with 6 samples.

Results

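Proteasome subunit genes were taken as every gene whose symbol starts with Psma, Psmb, Psmc, Psmd, Psme, Psmf or Psmg. This gave 47 of the 30869 gene symbols on the array, with 83 probes. Of these genes, 46 encode parts, partners or assembly factors of the proteasome. The other one, Psmc3ip, encodes a cofactor of meiotic recombination that carries the prefix only through its name, and it was kept apart. A probe was tested where its detection p-value, its rank among the negative control beads of the array, was under 0.01 on at least 2 of the 6 arrays. By this filter 63 of the 83 probes and 38 of the 47 genes were tested, among 12052 genes tested in all, and 37 of the 38 were above background on all 6 arrays. Where a gene had several such probes, the brightest stood for it.

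The arrays held RNA of SmoWT-MB, a single cell line grown from mouse medulloblastoma, a tumour of the cerebellum, with deficiency of the hedgehog receptor gene Ptch in all groups. Cells were exposed for 6 h to JQ1, which blocks the bromodomains of the BET proteins, to GDC-0449 (vismodegib), which inhibits the hedgehog signal transducer Smoothened, or to the solvent DMSO. Each of the 3 groups had 2 arrays. Doses are not stated in the labels, nor whether the samples of a group were grown separately, so the spread behind each p-value may be technical rather than that of separate cultures.

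Proteins tagged with ubiquitin are degraded by the proteasome. Its barrel-shaped core is made of alpha rings, which gate the entry, and beta rings, which hold the proteolytic sites, and a cap on its end binds, unfolds and feeds in the substrate. The cap has a base, with a ring of ATPases, and a lid, which removes the ubiquitin chain. Other activators can take the place of the cap, immune signals can exchange the proteolytic subunits for inducible ones, and dedicated chaperones assemble the particle.

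As a check of the samples, Hexim1, a gene known to rise under BET inhibition, had log2 normalized intensities of 10.64 and 10.66 in JQ1-treated cells and 8.05 and 7.88 in GDC-0449-treated cells, against 7.89 and 7.75 in DMSO-treated cells. Hhip, a hedgehog target, had 5.94 and 6.08 in JQ1-treated cells and 5.59 and 5.64 in GDC-0449-treated cells, against 7.58 and 7.53 in DMSO-treated cells. Fewer probes were above background on the JQ1 arrays (15125 and 15345) than on the GDC-0449 arrays (16357 and 16154) and the DMSO arrays (16466 and 16230). Hedgehog-driven medulloblastoma arises from granule neuron precursors, and of 5 of their marker genes Barhl1 and Zic1 could be tested. Atoh1 and Pax6 were above background on no array, nor was the hedgehog target Gli1, while Neurod1 did not pass the filter. Defining markers of microglia (Aif1, Ptprc), endothelium (Pecam1, Cdh5), astrocytes (Gfap, Aqp4) and fibroblasts (Col1a1, Dcn) were above background on no array either.

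JQ1 against DMSO asks which subunit transcripts move when BET proteins are blocked. With JQ1, 12 of the 38 tested genes passed the threshold, 6 higher and 6 lower, which is 31.6% of them. Over all 12052 genes tested 58.3% passed, 28.4% higher and 30.0% lower. The changes were small apart from that of Psmb10, an inducible core subunit, which fell 3.54-fold and was the 1 tested member that changed at least 2-fold (2.63%, against 12.2% of all genes tested). The median log2 change of the 38 genes was 0.01 and their median absolute change 0.18, against 0.00 and 0.37 for all genes tested. The 38 genes were also brighter, with a median log2 intensity of 11.11, against 7.85 for all genes tested. Whether brightness bears on the size of the changes was not tested. For 24 of the 38 genes (63.2%) the 95% interval of the log2 change lay wholly within 0.5 of 0, as it did for 34.5% of all genes tested. Tests were made with limma on all 6 arrays, with Benjamini-Hochberg adjustment over all genes tested and a threshold of 0.05.

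These directions are relative to the other genes, because quantile normalization makes the distributions of all arrays equal. With each array scaled instead to the median of the probes detected on all arrays, 13 members were higher and 2 lower with JQ1 (34.2% and 5.26%, against 32.7% and 27.6% of all genes tested), and their median was 0.13, against 0.06 for all genes. Among genes that passed under this scaling and not under quantile normalization were Psma4, Psma7, Psmb2, Psmd4, Psmd8 and Psmd14, all higher. The decreases of Psmc4 (-0.16, adjusted p = 0.182), Psme3 (-0.22, adjusted p = 0.0753), Psmg2 (-0.21, adjusted p = 0.105) and Psmc3ip (-0.25, adjusted p = 0.0716) did not pass under it. With scaling to the median of all probes, most of which lie at background, 0 were higher and 10 lower (26.3%, against 12.4% higher and 47.3% lower of all genes tested), with medians of -0.23 for the members and -0.30 for all genes. The 6 increases did not pass there, with 0.10 for Psmb1 (adjusted p = 0.533) and 0.09 for Psmf1 (adjusted p = 0.613). When any 1 of the arrays compared was left out, which leaves 1 array in its group, fewer members passed. A smaller share of all genes tested passed as well. The median change of the members then lay between -0.02 and 0.07.

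**Figure D1:**
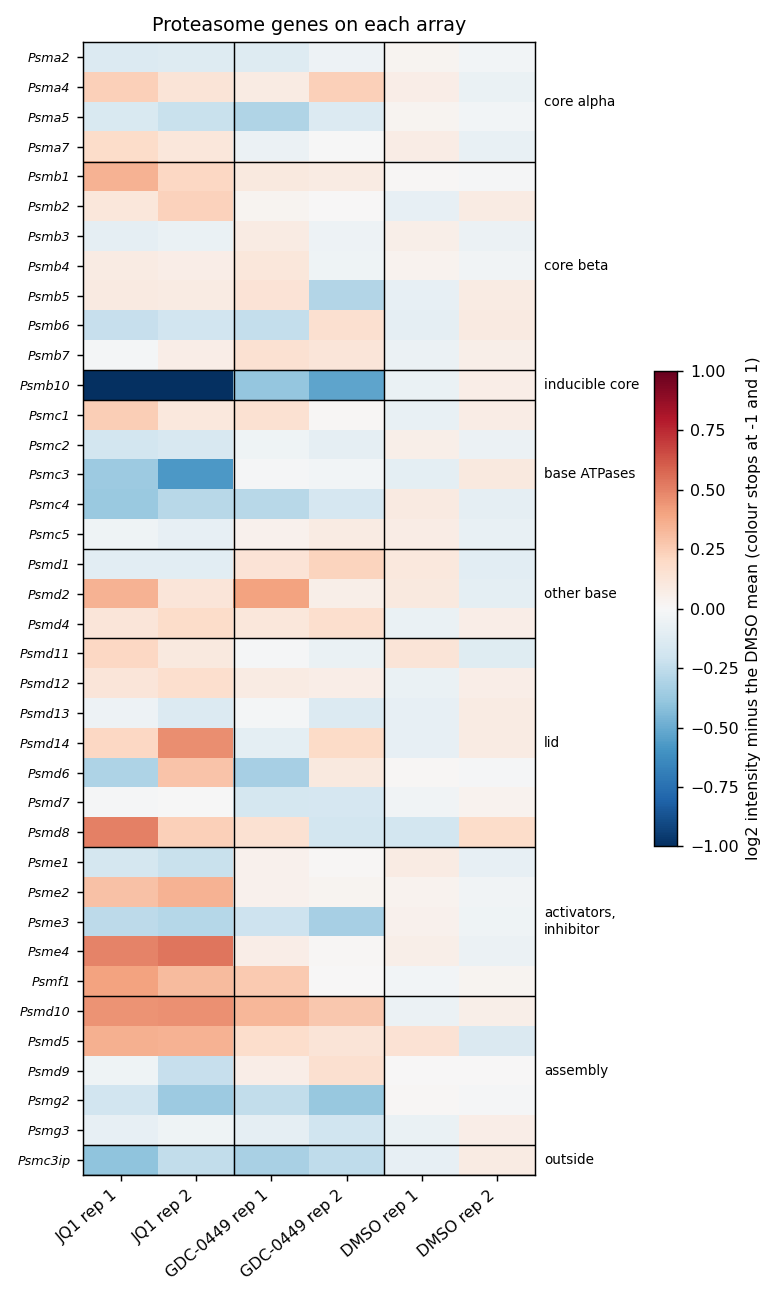
Normalized log2 intensity of each of the 38 tested proteasome genes on each array (columns, by group and replicate), minus the mean of the DMSO arrays; rows are ordered by particle and colours stop at -1 and 1. Psmb10 stands out on both JQ1 arrays and is lower to a smaller extent on both GDC-0449 arrays.

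Of the 5 inducible and tissue-specific core subunits, only Psmb10 could be tested. Psmb10 encodes the inducible trypsin-like subunit, which takes the place of the Psmb7 product in the immunoproteasome. Its brightest probe had log2 intensities of 6.70 and 6.73 in JQ1-treated cells and 8.15 and 8.01 in GDC-0449-treated cells, against 8.47 and 8.61 in DMSO-treated cells. All 3 groups lay apart, with the JQ1 arrays lowest and the DMSO arrays highest. Psmb10 fell by 1.82 on the log2 scale with JQ1 (SE 0.10, adjusted p = 3e-06), and its normalized intensity thus fell by 71.8%. With GDC-0449 it fell by 0.46 (SE 0.10, adjusted p = 0.0173), so that the intensity fell by 27.3%, and it was lower by 1.37 with JQ1 than with GDC-0449 (SE 0.10, adjusted p = 1.3e-05). A second Psmb10 probe read 6.36 and 6.33 with JQ1 and 7.86 and 7.94 with GDC-0449, against 8.10 and 8.32 with DMSO. That probe gave a log2 change of -1.87 with JQ1 (adjusted p = 4.99e-06 over all tested probes) and -0.31 with GDC-0449 (adjusted p = 0.0839). The JQ1 change passed in all 15 alternative settings, with values between -2.22 and -1.46. The GDC-0449 change missed the threshold without DMSO replicate 1 (-0.53, adjusted p = 0.0517), without DMSO replicate 2 (-0.39, adjusted p = 0.0869) and without GDC-0449 replicate 2 (-0.39, adjusted p = 0.0948).

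In bulk RNA, fewer cells with a transcript and less of it per cell cannot be told apart. Immunoproteasome subunits are abundant in immune cells, and of 4 microglia and immune markers Cd68 and Csf1r could be tested. The linear normalized intensities of the 4 summed to between 166.1 and 182.2 with JQ1 and between 130.5 and 132.0 with GDC-0449, against 112.4 to 128.9 with DMSO. Aif1 and Ptprc, which are part of that sum, were above background on no array. Cd68 and Csf1r were each above background on 3 arrays. Cd68 rose by 1.19 with JQ1 (SE 0.1, adjusted p = 2.99e-05), and Csf1r did not pass (0.25, SE 0.17, adjusted p = 0.231). Mbp, an oligodendrocyte marker, had log2 intensities of 6.35 and 6.25 with JQ1 and 8.23 and 8.22 with GDC-0449, against 8.59 and 8.33 with DMSO. It fell by 2.16 with JQ1 (SE 0.11, adjusted p = 2.22e-06), while the oligodendrocyte marker Mog was above background on no array. The part of these markers in the Psmb10 result was not tested. The other inducible subunits gave no value to compare: both Psmb8 probes and the probes of the thymus subunit Psmb11 and the testis subunit Psma8 were above background on no array, and the Psmb9 probe was so on 1 array.

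The promoter windows of Psmb10, of Psme4 and Psmd10, which were higher with JQ1, and of Psmb4, a constitutive core subunit that did not pass, are shown to set 3 genes whose tested probes all passed with JQ1 beside one that did not. Psmc3 is not shown. Each is the 250 bases before the annotated start, 5′ to 3′ on the strand of the gene, from RefSeq on GRCm38.p6, with matches to the motifs named after them in capitals. Psmb10 lies on the minus strand (chr8:105938393-105938642), Psme4 on the plus strand (chr11:30771525-30771774), Psmd10 on the minus strand (chrX:140956712-140956961) and Psmb4 on the minus strand (chr3:94886959-94887208).
Psmb10: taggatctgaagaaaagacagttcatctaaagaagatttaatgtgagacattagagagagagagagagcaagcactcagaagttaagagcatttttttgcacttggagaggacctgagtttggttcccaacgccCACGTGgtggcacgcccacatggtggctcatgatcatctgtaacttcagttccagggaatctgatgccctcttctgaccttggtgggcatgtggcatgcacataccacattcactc
Psme4: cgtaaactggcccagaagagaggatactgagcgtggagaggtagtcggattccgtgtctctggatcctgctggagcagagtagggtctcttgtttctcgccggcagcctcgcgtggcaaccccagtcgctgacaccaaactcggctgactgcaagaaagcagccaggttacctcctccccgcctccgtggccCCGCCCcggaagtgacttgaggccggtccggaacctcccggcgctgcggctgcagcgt
Psmd10: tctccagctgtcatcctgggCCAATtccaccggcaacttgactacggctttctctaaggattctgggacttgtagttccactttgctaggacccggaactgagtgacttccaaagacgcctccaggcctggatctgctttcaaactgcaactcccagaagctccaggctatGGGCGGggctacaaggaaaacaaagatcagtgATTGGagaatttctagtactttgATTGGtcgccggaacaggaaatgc
Psmb4: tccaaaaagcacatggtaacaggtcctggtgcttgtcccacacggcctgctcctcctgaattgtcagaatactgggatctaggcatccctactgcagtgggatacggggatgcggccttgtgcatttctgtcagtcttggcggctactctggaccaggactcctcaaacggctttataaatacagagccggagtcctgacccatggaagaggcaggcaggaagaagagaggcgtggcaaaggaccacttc
Capitals mark 1 E-box (CACGTG) in Psmb10, 1 GC box (GGGCGG or its complement) in Psme4, and 3 CCAAT boxes and 1 GC box in Psmd10, while the Psmb4 window held none of the motifs searched.

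Motifs were searched on both strands, and none of the matches is a shown binding site. Windows were at hand for 39 of the 47 genes, 42 windows in all because some genes have several starts. The GC box was in 52.4% of them and in 32.7% of all 32851 promoter windows of this length. CCAAT, the box bound by NF-Y, was in 35.7% against 33.8% of all windows, and the E-box was in 9.52% against 6.02%. The core of the antioxidant response element (TGACNNNGC), which NRF factors bind, was in 11.9% of the windows against 10.2%, in Psmb5, Psmb6, Psmc6, Psmd12 and Psmd9. The interferon-related motifs, the gamma-activated site (TTCNNNGAA) and the interferon response pair, were in 2.38% and 7.14% of the windows, against 7.02% and 2.98% of all windows, and neither was in that of Psmb10.

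Of the 14 subunits of the constitutive core 11 were tested. With JQ1 only Psmb1 passed, where 58.3% of all genes tested did, and for 10 of the 11 the 95% interval of the log2 change lay within 0.5 of 0. With scaling to the median of the probes detected on all arrays, Psma4 (0.36, adjusted p = 0.0129), Psma7 (0.32, adjusted p = 0.0195) and Psmb2 (0.35, adjusted p = 0.0215) also passed, and Psmb1 was at 0.46 (adjusted p = 0.00291). Among the alpha subunits, Psma5 had log2 intensities of 13.13 and 13.06 in JQ1-treated cells and 12.98 and 13.14 in GDC-0449-treated cells, against 13.31 and 13.25 in DMSO-treated cells. Both treated groups lay below the DMSO arrays, by -0.19 (SE 0.10, adjusted p = 0.118) and -0.22 (SE 0.10, adjusted p = 0.147), and neither passed. Psma4 had 12.56 and 12.45 with JQ1 and 12.40 and 12.56 with GDC-0449, against 12.39 and 12.25 with DMSO. Psma7 had 12.43 and 12.36 with JQ1 and 12.19 and 12.24 with GDC-0449, against 12.32 and 12.17 with DMSO. In the 4 tested alpha subunits none passed in any comparison, the changes of JQ1 against DMSO ran from -0.19 to 0.18, and their intervals lay between -0.42 and 0.42. Psma1, Psma3 and Psma6 had 1 probe each, above background on no array.

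All 7 constitutive beta subunits were tested. Psmb1, which has no proteolytic site, had log2 intensities of 12.22 and 12.08 with JQ1 and 11.97 and 11.95 with GDC-0449, against 11.88 and 11.86 with DMSO. The JQ1 arrays lay above both other groups. Psmb1 rose by 0.28 with JQ1 (SE 0.09, 1.22-fold, adjusted p = 0.0292). The call was lost without DMSO replicate 1 (0.29, adjusted p = 0.0781), JQ1 replicate 1 (0.21, adjusted p = 0.167) or DMSO replicate 2 (0.27, adjusted p = 0.0936).

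The 3 proteolytic subunits did not pass with either compound, where 58.3% of all genes tested passed with JQ1 and 18.2% with GDC-0449. Psmb5, the chymotrypsin-like site and the main target of proteasome inhibitor drugs, had 9.42 and 9.41 with JQ1 and 9.47 and 9.04 with GDC-0449, against 9.25 and 9.41 with DMSO. Psmb6, the caspase-like site, had 11.74 and 11.78 with JQ1 and 11.73 and 12.13 with GDC-0449, against 11.88 and 12.06 with DMSO. For both, the GDC-0449 arrays lay further apart than the group means. Psmb7, the trypsin-like site that Psmb10 replaces, had 12.24 and 12.33 with JQ1 and 12.41 and 12.38 with GDC-0449, against 12.20 and 12.32 with DMSO. The log2 change of Psmb7 with JQ1 was 0.02 (95% interval -0.19 to 0.24), and its 3 other tested probes gave 0.01, -0.07 and -0.10. Those of Psmb5 and Psmb6 were 0.08 (-0.25 to 0.41) and -0.21 (-0.52 to 0.11). Psmb2, a structural subunit, had 12.17 and 12.29 with JQ1 and 12.09 and 12.06 with GDC-0449, against 11.98 and 12.14 with DMSO, a change of 0.17 with JQ1 (adjusted p = 0.167). Over the 7 beta subunits the changes ran from -0.21 to 0.28 with JQ1 and from -0.08 to 0.13 with GDC-0449.

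**Figure D2:**
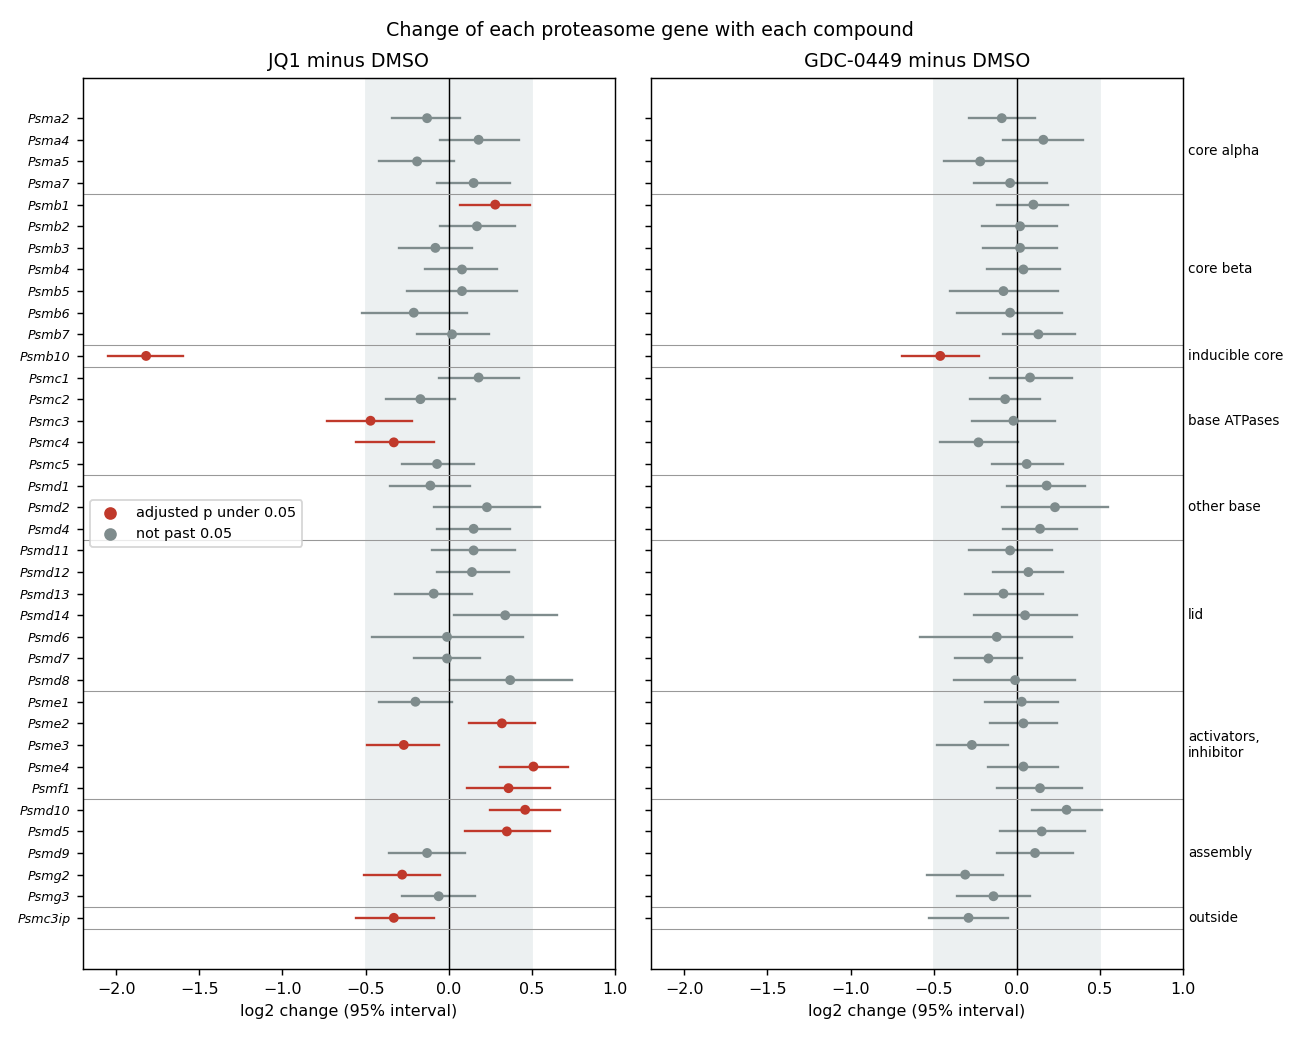
Log2 change of each tested proteasome gene with its 95% interval, JQ1 minus DMSO in the left panel and GDC-0449 minus DMSO in the right, ordered by particle; the shaded band spans 0.5 on each side of 0 and red marks an adjusted p under 0.05. In the left panel 12 genes are red, and in the right panel only Psmb10 is.

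Of the 17 cap subunits 15 were tested. The 2 that passed with JQ1 (13.3%, against 58.3% of all genes tested) were ATPases of the base. Psmc3, the ATPase whose tail helps to open the gate of the core, had log2 intensities of 10.85 and 10.64 in JQ1-treated cells and 11.20 and 11.19 in GDC-0449-treated cells, against 11.12 and 11.31 in DMSO-treated cells. The JQ1 arrays lay below both other groups, which overlapped. Psmc3 fell by 0.47 with JQ1 (SE 0.11, 1.39-fold lower, adjusted p = 0.00598) and was lower by 0.45 with JQ1 than with GDC-0449 (SE 0.11, adjusted p = 0.00814). It has a single tested probe, and its JQ1 call held in all 15 alternative settings, between -0.73 and -0.37. The difference from GDC-0449 missed the threshold without JQ1 replicate 2 (-0.35, adjusted p = 0.0585) and with scaling to the median of the probes detected on all arrays (-0.27, adjusted p = 0.07). Psmc4, another ATPase, had 12.02 and 12.11 with JQ1 and 12.11 and 12.22 with GDC-0449, against 12.48 and 12.30 with DMSO. Both treated groups lay below the DMSO arrays, and Psmc4 fell by 0.33 with JQ1 (SE 0.10, adjusted p = 0.0226) by this probe. A dimmer Psmc4 probe gave a log2 change of 0.08, and the mean of both probes gave -0.12 (adjusted p = 0.207). The Psmc4 call was also lost with scaling to the median of the probes detected on all arrays (-0.16) and without DMSO replicate 1 (-0.24, adjusted p = 0.129) or JQ1 replicate 1 (-0.28, adjusted p = 0.109).

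Neither Psmc1 nor Psmc2, further ATPases of the ring, passed. Psmc2 had 12.71 and 12.73 with JQ1 and 12.85 and 12.80 with GDC-0449, against 12.95 and 12.83 with DMSO. Psmc1 had 10.88 and 10.74 with JQ1 and 10.79 and 10.65 with GDC-0449, against 10.56 and 10.71 with DMSO. With JQ1 the first lay below and the second above the DMSO arrays, by -0.17 and 0.18. The sixth ATPase, Psmc6, had 2 probes above background on no array. Over the 5 tested ATPases the median log2 change with JQ1 was -0.17, against -0.02 with GDC-0449, where none passed. Of all genes tested 18.2% passed with GDC-0449.

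The 3 other base subunits are scaffolds and ubiquitin receptors, and none passed against DMSO. Of all genes tested 58.3% passed with JQ1 and 18.2% with GDC-0449. Psmd4, a ubiquitin receptor, had log2 intensities of 12.82 and 12.88 with JQ1 and 12.81 and 12.87 with GDC-0449, against 12.63 and 12.77 with DMSO. Psmd2, a scaffold that docks shuttle factors, had 7.03 and 6.80 with JQ1 and 7.08 and 6.74 with GDC-0449, against 6.78 and 6.58 with DMSO. The treated arrays lay above the DMSO arrays for Psmd4, and the log2 changes were 0.15 with JQ1 and 0.14 with GDC-0449. Psmd1, a scaffold of the base, had 12.56 and 12.56 with JQ1 and 12.80 and 12.89 with GDC-0449, against 12.77 and 12.56 with DMSO. It was lower with JQ1 than with GDC-0449 (log2 difference -0.28, SE 0.10, adjusted p = 0.044), though neither treated group passed against DMSO. That difference was 0.01 with scaling to the median of the probes detected on all arrays, and it missed the threshold whenever any 1 of the 4 arrays compared was left out (-0.33 to -0.24). A second bright probe gave -0.38 (adjusted p = 0.0141 over all tested probes) and a dimmer one 0.17 (adjusted p = 0.22).

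In the lid 7 of 8 subunits were tested and none passed in any comparison by its brightest probe. Of all genes tested 58.3% passed with JQ1, 18.2% with GDC-0449 and 54.5% between the compounds. Psmd14, the enzyme that cuts off the ubiquitin chain, had log2 intensities of 9.26 and 9.52 with JQ1 and 8.96 and 9.25 with GDC-0449, against 8.97 and 9.14 with DMSO. Its JQ1 arrays lay above the DMSO arrays, with a log2 change of 0.34 (95% interval 0.03 to 0.65, adjusted p = 0.0593). That change passed in other settings, among them the replicate number as a block (adjusted p = 0.0169) and only the 2 groups compared (adjusted p = 0.0432). A dimmer Psmd14 probe gave 0.11 (adjusted p = 0.482 over all tested probes). Psmd8, the last subunit to join the lid in yeast, had 11.56 and 11.30 with JQ1 and 11.21 and 10.88 with GDC-0449, against 10.88 and 11.24 with DMSO. The change of Psmd8 was 0.37 with JQ1 (0.01 to 0.74, adjusted p = 0.0746), and its arrays differed widely within each group. With no background correction the Psmd8 change passed (0.37, adjusted p = 0.0146). Psmd12, a scaffold subunit, had 10.83 and 10.88 with JQ1 and 10.79 and 10.78 with GDC-0449, against 10.64 and 10.78 with DMSO. Psmd13 had 12.01 and 11.92 with JQ1 and 12.04 and 11.92 with GDC-0449, against 11.98 and 12.14 with DMSO. Neither passed, and only for Psmd12 did the JQ1 arrays lie above the DMSO arrays. Psmd7, the partner of Psmd14 in the deubiquitinating pair, had 11.22 and 11.23 with JQ1 and 11.06 and 11.07 with GDC-0449, against 11.20 and 11.27 with DMSO. The JQ1 change of Psmd7 was -0.01 by this probe, but 0.57 by its dimmest tested probe (adjusted p = 0.000983 over all tested probes) and 0.24 by the mean of its probes (adjusted p = 0.0481). Over the lid the changes ran from -0.09 to 0.37 with JQ1 and from -0.17 to 0.07 with GDC-0449. Both Psmd3 probes were above background on no array.

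The activators and the inhibitor of the core held 4 of the 12 calls with JQ1 among 5 genes, 3 higher and 1 lower, where 58.3% of all genes tested passed. Psme4 encodes a nuclear activator known for the turnover of acetylated histones and for roles in DNA repair and sperm formation. It had log2 intensities of 11.76 and 11.80 in JQ1-treated cells and 11.33 and 11.28 in GDC-0449-treated cells, against 11.32 and 11.21 in DMSO-treated cells. The JQ1 arrays lay above all others, and the GDC-0449 and DMSO arrays overlapped. Psme4 rose by 0.51 with JQ1 (SE 0.09, 1.43-fold, adjusted p = 0.00144) and was higher by 0.47 with JQ1 than with GDC-0449 (SE 0.09, adjusted p = 0.00237). Its dimmer probe read 6.70 and 6.60 with JQ1 and 6.16 and 6.15 with GDC-0449, against 6.21 and 6.32 with DMSO, a JQ1 change of 0.39 (adjusted p = 0.00919 over all tested probes). The JQ1 call was lost in 1 of 15 alternative settings, with scaling to the median of all probes (0.32, adjusted p = 0.0501).

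Psme3 encodes another nuclear activator, which promotes degradation without ubiquitin. Its log2 intensities were 9.86 and 9.84 with JQ1 and 9.92 and 9.79 with GDC-0449, against 10.17 and 10.08 with DMSO. Both treated groups lay below the DMSO arrays. Psme3 fell by 0.27 with JQ1 (SE 0.09, adjusted p = 0.0333), and its GDC-0449 change of -0.27 did not pass (SE 0.09, adjusted p = 0.083). With no background correction that GDC-0449 change passed (-0.26, adjusted p = 0.0304). The JQ1 call was lost when any 1 array was left out, with changes between -0.32 and -0.23 and adjusted p between 0.0559 without DMSO replicate 2 and 0.137 without DMSO replicate 1.

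Psme1 and Psme2 encode the paired subunits of the interferon-induced activator. With JQ1 the second passed and the first did not, and the difference between the genes was not tested. Psme2 had log2 intensities of 8.81 and 8.86 with JQ1 and 8.56 and 8.54 with GDC-0449, against 8.55 and 8.48 with DMSO. It rose by 0.32 with JQ1 (SE 0.09, adjusted p = 0.0133) and was higher than with GDC-0449 by 0.28 (SE 0.09, adjusted p = 0.0246). Psme1 had 9.88 and 9.83 with JQ1 and 10.10 and 10.07 with GDC-0449, against 10.14 and 9.97 with DMSO. The JQ1 arrays of Psme1 lay below the others, with a log2 change of -0.20 that did not pass (95% interval -0.42 to 0.02). Against GDC-0449 the Psme1 difference was -0.23 (adjusted p = 0.0747). By a dimmer Psme1 probe it was -0.53 (adjusted p = 0.0107 over all tested probes), and by the mean of both -0.38 (adjusted p = 0.019). The Psme2 rise was lost without DMSO replicate 2 (0.29, adjusted p = 0.0614) or JQ1 replicate 2 (0.29, adjusted p = 0.0682), and with scaling to the median of all probes it was -0.03. Its difference from GDC-0449 was lost when any 1 of the 4 arrays was left out (0.26 to 0.31). RefSeq lists a near copy of Psme2, Psme2b, which the probe may not tell apart.

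Psmf1 encodes an inhibitor of the isolated core. Its brightest probe had 10.67 and 10.58 with JQ1 and 10.53 and 10.27 with GDC-0449, against 10.24 and 10.29 with DMSO, and rose by 0.36 with JQ1 (SE 0.11, adjusted p = 0.0205). A dimmer probe read 6.51 and 6.72 with JQ1 and 6.55 and 6.80 with GDC-0449, against 7.06 and 7.11 with DMSO. That probe was lower with JQ1 (log2 change -0.47, adjusted p = 0.0106 over all tested probes), so Psmf1 has no settled direction, and it was the 1 member whose called probes opposed each other. The rise was also lost without DMSO replicate 1 (0.34, adjusted p = 0.0893), JQ1 replicate 1 (0.31, adjusted p = 0.0975) or DMSO replicate 2 (0.39, adjusted p = 0.0582).

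**Figure D3:**
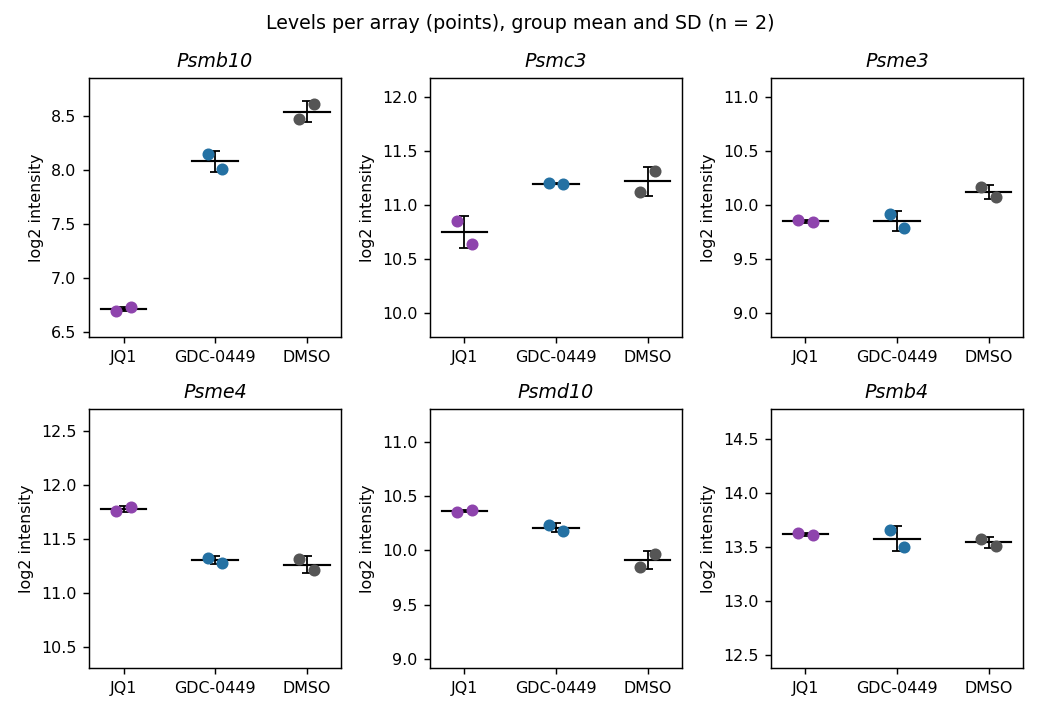
Normalized log2 intensity on each array (points) with the group mean (line) and SD (bar, n = 2) for Psmb10, Psmc3, Psme3, Psme4, Psmd10 and Psmb4; the axis of each panel has its own range. The JQ1 arrays lie below the others for Psmb10 and Psmc3 and above them for Psme4 and Psmd10, both treated groups lie below DMSO for Psme3, and the groups lie close together for Psmb4.

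Among the 5 tested assembly chaperones, 2 rose and 1 fell with JQ1 (3 of 5, near the 58.3% of all genes tested). Psmd10 encodes gankyrin, a chaperone of the base that is known as an oncoprotein binding the retinoblastoma protein. It had log2 intensities of 10.36 and 10.37 in JQ1-treated cells and 10.24 and 10.18 in GDC-0449-treated cells, against 9.85 and 9.97 in DMSO-treated cells. The JQ1 arrays were highest and the DMSO arrays lowest, with no overlap. Psmd10 rose by 0.46 with JQ1 (SE 0.09, 1.37-fold, adjusted p = 0.00277), and its GDC-0449 change of 0.30 did not pass (SE 0.09, 95% interval 0.09 to 0.51, adjusted p = 0.0554). With no background correction Psmd10 did pass with GDC-0449 (0.29, adjusted p = 0.0158). Its other probes gave 0.36 and 0.30 with JQ1, both past the threshold over all tested probes, and 0.01 and 0.17 with GDC-0449. The JQ1 call was lost in 1 of 15 alternative settings, with scaling to the median of all probes (0.17, adjusted p = 0.277).

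Psmd5, another chaperone of the base, had 8.73 and 8.72 with JQ1 and 8.55 and 8.50 with GDC-0449, against 8.52 and 8.23 with DMSO, and rose by 0.35 with JQ1 (SE 0.11, adjusted p = 0.025). Its DMSO arrays lay far apart, and without DMSO replicate 2 the change was 0.21 (adjusted p = 0.151). The Psmd5 call was also lost without JQ1 replicate 1 (0.35, adjusted p = 0.0786) or JQ1 replicate 2 (0.36, adjusted p = 0.0749), and with scaling to the median of all probes the value was -0.0015.

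Psmg1, Psmg2 and Psmg3 encode chaperones that build the alpha ring. Psmg2 had log2 intensities of 10.28 and 10.11 with JQ1 and 10.23 and 10.10 with GDC-0449, against 10.49 and 10.46 with DMSO. It fell by 0.28 with JQ1 (SE 0.10, adjusted p = 0.0407), and its GDC-0449 change was -0.31 (SE 0.10, adjusted p = 0.0651). That GDC-0449 change passed in other settings, among them no background correction (-0.3, adjusted p = 0.0168) and the mean of the probes (-0.32, adjusted p = 0.0478). Both treated groups lay below the DMSO arrays and overlapped each other. The JQ1 call was lost without DMSO replicate 1 (-0.26, adjusted p = 0.129), DMSO replicate 2 (-0.29, adjusted p = 0.0976) or JQ1 replicate 2 (-0.20, adjusted p = 0.218). Psmg3 had 9.69 and 9.73 with JQ1 and 9.68 and 9.57 with GDC-0449, against 9.70 and 9.84 with DMSO, and did not pass. Psmg1, which stands in the deposited table under the older symbol Dscr2 and so is outside the 47 genes, had 10.12 and 10.13 with JQ1 and 9.94 and 9.93 with GDC-0449, against 10.03 and 10.28 with DMSO. Its changes of -0.03 and -0.21 did not pass. The gene outside the particle, Psmc3ip, had 10.64 and 10.80 with JQ1 and 10.72 and 10.79 with GDC-0449, against 10.96 and 11.13 with DMSO, and fell by 0.33 with JQ1 (SE 0.10, adjusted p = 0.025). That call was lost without JQ1 replicate 1 (-0.25, adjusted p = 0.143) or DMSO replicate 2 (-0.24, adjusted p = 0.136).

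GDC-0449 against DMSO asks which subunit transcripts move when Smoothened is inhibited. Psmb10 was the 1 gene of 38 to pass (2.63%), where 18.2% of all genes tested did, 8.64% higher and 9.60% lower. At p under 0.05 before adjustment limma gave 1 gene higher, Psmd10, and 5 lower, which besides Psmb10 and Psma5 were Psmg2, Psme3 and Psmc3ip. For 32 of the 38 genes (84.2%) the 95% interval lay within 0.5 of 0, against 62.5% of all genes tested, and this held for 11 of 11 constitutive core subunits, 13 of 15 cap subunits and 5 of 5 activators and inhibitor. None of the 38 changed at least 2-fold, as 0.938% of all genes tested did. The median log2 change was 0.02 and the median absolute change 0.09, against 0.01 and 0.17 for all genes tested. The count of 1 was 5 with no background correction (13.2%, against 24.4% of all genes tested) and 10, all lower, with scaling to the median of all probes (26.3%, against 29.8% of all genes tested). With 1 array left out the count did not rise, and a smaller share of all genes tested passed.

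JQ1 and GDC-0449 share the DMSO arrays, so their values against DMSO are not independent, and the compounds were also set against each other directly. JQ1 differed from GDC-0449 for 5 of the 38 genes (13.2%), 2 higher and 3 lower, where 54.5% of all genes tested did, 26.5% higher and 28.0% lower. At least a 2-fold difference was seen in Psmb10 alone among the 38, and in 11.1% of all genes tested. The higher genes were Psme4 and Psme2 and the lower ones Psmb10, Psmc3 and Psmd1. For 31 of 38 genes (81.6%) the interval of the difference lay within 0.5 of 0, against 37.8% of all genes tested. Psmd10, Psme3, Psmg2 and Psmc3ip did not differ past the threshold between the compounds, with differences of 0.16 (95% interval -0.05 to 0.37), -0.01 (-0.22 to 0.21), 0.03 (-0.20 to 0.26) and -0.04 (-0.27 to 0.20). Another Psmd10 probe was higher with JQ1 than with GDC-0449 by 0.35 (adjusted p = 0.0115 over all tested probes). So were dimmer probes of Psmd14 by 0.50 (adjusted p = 0.0106), of Psmd7 by 0.32 (adjusted p = 0.018) and of Psmd2 by 0.35 (adjusted p = 0.0311). A dimmer Psme1 probe was lower (-0.53, adjusted p = 0.0107). When arrays were scaled to the median of the probes detected on all arrays, the count of 5 was 17, of which 15 were higher (39.5% of the members, against 30.5% of all genes tested). Without JQ1 replicate 2 the count was lower, and a smaller share of all genes tested passed too.

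Probes of the same gene did not always give the same answer. Of the 38 tested genes 19 had several tested probes, and in 5 of the 19 their JQ1 changes differed in sign. Counted by probe, 20 of the 63 tested probes passed with JQ1, 11 higher and 9 lower (31.7%), against 56.4% of all tested probes. For Psmb10, Psme4 and Psmd10 all tested probes passed in 1 direction with JQ1. Besides Psmf1 and Psmd7, Psmd1 had a dimmer probe that was higher with JQ1 (0.35, adjusted p = 0.026 over all tested probes) while its brightest gave -0.11. Psmd9, a chaperone of the base that is named here for this disagreement after its values were seen, had a dimmer probe that was lower with JQ1 (-0.60, adjusted p = 0.0218 over all tested probes) and a brightest one at -0.13. Of the tested genes 8 also have a probe above background on no array. The probe sequences were not used here, so where on a transcript each probe lies is not given. For Psma5, Psmb5, Psmb6 and Psmb7 RefSeq lists pseudogenes that a probe may not tell apart from the gene.

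**Figure D4:**
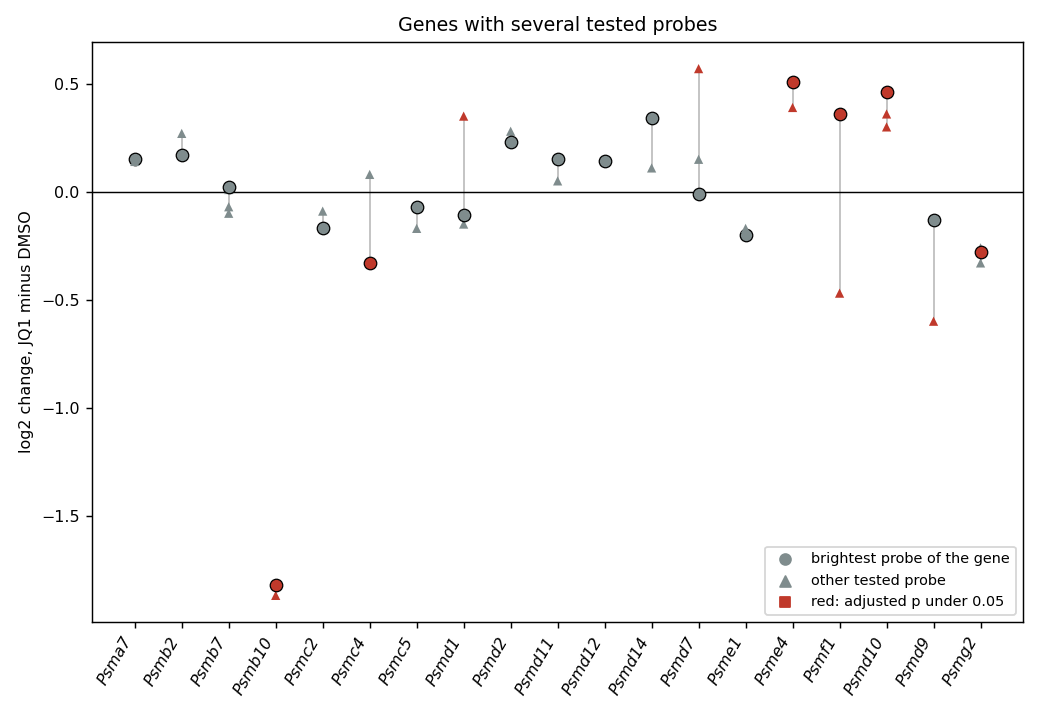
Log2 change with JQ1 against DMSO of every tested probe of the 19 proteasome genes with several tested probes; circles mark the brightest probe, triangles the others, and red an adjusted p under 0.05. Probes lie close together for Psmb10, Psme4 and Psmd10 and on opposite sides of 0 for Psmf1.

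Genes that act beside the proteasome were taken from a list of 37, of which 34 were on the array and 28 tested. With JQ1, 5 rose and 5 fell, with GDC-0449 none rose and 1 fell, and between JQ1 and GDC-0449 5 were higher and 7 lower, with median changes of -0.01, -0.05 and 0.03. Over all genes tested 58.3%, 18.2% and 54.5% passed in these comparisons. Of 7 tested parts and partners without the prefix, Uchl5, a deubiquitinase bound to the cap, had log2 intensities of 10.69 and 10.52 with JQ1 and 9.67 and 9.75 with GDC-0449, against 10.14 and 9.87 with DMSO. The JQ1 arrays lay above and the GDC-0449 arrays below the DMSO arrays. Uchl5 rose by 0.60 with JQ1 (SE 0.12, adjusted p = 0.00252) and was higher by 0.90 than with GDC-0449 (SE 0.12, adjusted p = 0.000295). Scaled to the median of all probes, its JQ1 change was 0.31 (adjusted p = 0.0804). Ecpas, a proteasome adaptor that tethers core and cap in yeast, had 8.66 and 8.64 with JQ1 and 8.40 and 8.48 with GDC-0449, against 8.84 and 8.72 with DMSO. It was the 1 gene of the list to pass with GDC-0449, where it fell by 0.34 (SE 0.09, adjusted p = 0.038), a call lost when any 1 array was left out (-0.41 to -0.28). Pomp, the maturation factor of the beta rings, had 12.76 and 12.76 with JQ1 and 12.58 and 12.60 with GDC-0449, against 12.61 and 12.69 with DMSO, and did not pass.

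Shuttle receptors carry ubiquitinated proteins to the cap, and of 5 tested 1 rose and 2 fell with JQ1, where 58.3% of all genes tested passed. Rad23b had log2 intensities of 9.02 and 8.95 with JQ1 and 9.54 and 9.41 with GDC-0449, against 9.77 and 9.66 with DMSO. Ubqln4 had 8.31 and 8.05 with JQ1 and 9.00 and 8.87 with GDC-0449, against 8.82 and 8.94 with DMSO. The JQ1 arrays of both lay below all others. Rad23b fell by 0.73 (SE 0.10, adjusted p = 0.000318) and Ubqln4 fell by 0.70 (SE 0.12, adjusted p = 0.000956), and the mean of all Rad23b probes gave -0.21 (adjusted p = 0.0792). Of 6 tested genes for VCP, the unfoldase that pulls proteins out of complexes and membranes, and its cofactors, 2 rose with JQ1. Vcp had 13.24 and 13.24 with JQ1 and 13.21 and 13.18 with GDC-0449, against 12.84 and 13.03 with DMSO. It rose by 0.30 with JQ1 (SE 0.10, adjusted p = 0.026), a call lost without DMSO replicate 1 (0.21, adjusted p = 0.145), JQ1 replicate 1 (0.31, adjusted p = 0.0794) or JQ1 replicate 2 (0.30, adjusted p = 0.0868). Faf1, a VCP cofactor, had 11.80 and 11.81 with JQ1 and 11.29 and 11.46 with GDC-0449, against 11.69 and 11.61 with DMSO. It was higher with JQ1 than with GDC-0449 by 0.44 (SE 0.10, adjusted p = 0.00529), but by 0.02 in the mean of its probes. None of the 4 tested ubiquitin and E1 enzyme genes passed against DMSO.

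Of 6 tested genes for transcription factors known to act on proteasome genes, 1 rose and 3 fell with JQ1, a share near the 58.3% of all genes tested. Nfe2l1, which encodes the factor that raises subunit transcription when the proteasome is inhibited, had log2 intensities of 10.14 and 10.18 with JQ1 and 10.52 and 10.44 with GDC-0449, against 10.30 and 10.10 with DMSO. Its change of -0.04 with JQ1 did not pass (SE 0.10), nor did that of 0.28 with GDC-0449 (SE 0.10, adjusted p = 0.0916). With no background correction that GDC-0449 change passed (0.27, adjusted p = 0.0305). Nfe2l1 was lower by 0.32 with JQ1 than with GDC-0449 (SE 0.10, adjusted p = 0.0264). That difference missed the threshold with scaling to the median of the probes detected on all arrays (-0.17, adjusted p = 0.176). Nfe2l2, its relative in the oxidative stress response, had 6.80 and 6.68 with JQ1 and 7.13 and 7.10 with GDC-0449, against 7.55 and 7.19 with DMSO. Nfe2l2 fell by 0.63 with JQ1 (SE 0.13, adjusted p = 0.0027). Mafg, a small Maf partner of both factors, had 8.95 and 9.02 with JQ1 and 9.20 and 9.27 with GDC-0449, against 9.46 and 9.40 with DMSO, and fell by 0.45 (SE 0.09, adjusted p = 0.00283). Nfyc, a subunit of the CCAAT-binding factor NF-Y, had 11.42 and 11.33 with JQ1 and 11.82 and 11.73 with GDC-0449, against 12.01 and 11.74 with DMSO, and fell by 0.50 (SE 0.11, adjusted p = 0.00467). For these 3 the JQ1 arrays lay below all others, and their JQ1 calls held in all 15 alternative settings.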

How the data were processed

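Illumina mouse bead arrays were used. Per the file headers, the deposited values are a mean bead intensity for each of 45281 probes and each array, on a linear scale and not normalized, with a detection p-value beside it. The submitters' processing notes name GenomeStudio 1.9.0. The deposited value table of the series, a gene-level intensity on a linear scale with the same median in every column and an unstated normalization, served only as an alternative.

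Intensities were background-corrected and quantile-normalized with neqc (limma 3.58.1, R 4.3.3), with an offset of 16 that pulls the changes of dim probes towards 0. A linear model with 1 coefficient per group was fitted to 6 arrays with lmFit and eBayes (3 residual and 5.38 prior degrees of freedom). Tests were two-sided. SE and 95% intervals come from this model, SD from 2 arrays, and the number of arrays limits the precision. Older symbols were updated with the RefSeq gene table of GRCm38.p6 (6111 of 45281 probes updated, 27740 already current, 11430 kept). The model was also run on simulated data with independent noise on each array, and no result here rests on that run.

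The members, particle groups, lists and alternatives were chosen with earlier results of these data known. Array values are given for the 3 members of each particle group with the smallest p with JQ1 and the 2 with GDC-0449. They are also given for a set of subunits taken whatever their values (Psmb5, Psmb10, Psmd4, Psmd14, the activators, Psmf1 and the alpha ring chaperones), for genes whose called probes oppose each other, and for Psmc3ip. Of the other genes of the pathway they are given for the 6 with the smallest p in each comparison with DMSO, and for Nfe2l1, Nfe2l2 and Pomp. Alternatives covered background correction, scaling, filter, probe choice, symbols, samples in the fit, a replicate block, the variance model, the value table and leaving out each array. Psmg4 was not analysed here, and 1 marker gene is not reported here.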

Additional observations from a re-analysis of the deposited data

Results flagged for a closer look

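One signal lay outside the tested probes. The probe of Psmb9, the inducible subunit that replaces the Psmb6 product, was left untested because it was above background on 1 array only, JQ1 replicate 2, where its log2 intensity was 5.48 at a detection p-value of 0.00748. It read 5.13 on the other JQ1 array and 4.64 and 4.60 on the GDC-0449 arrays, against 4.62 and 4.77 on the DMSO arrays, so that both JQ1 values lay above the other 4. Of the 28255 untested probes of the table, 154 were above background on that JQ1 array and 74 on the other, 217 and 133 on the GDC-0449 arrays, and 212 and 149 on the DMSO arrays. The Psmb9 values were not tested between groups.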

How the results depend on the processing

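The count of 12 members called with JQ1 against DMSO was between 10 and 16 in the settings that kept all arrays and counted genes. With no filter on dim probes 23.4% of members passed, against 22.3% of all genes tested. In the other such settings 26.3% to 42.1% of members passed, against 58% to 61.5% of all genes tested. By probe the count was 20 (31.7%, against 56.4% of all tested probes). Leaving out 1 array gave 6 to 8. Its 6 higher calls were 13 with scaling to the median of the probes detected on all arrays, 0 with scaling to the median of all probes, 11 by probe and 3 to 4 with 1 array left out. Its 6 lower calls were 2 and 10 under these scalings and 3 to 4 with 1 array left out. The 1 call with GDC-0449 against DMSO was 5 with no background correction (13.2%, against 24.4% of all genes tested). Under the 2 scalings it was 4 and 10 (10.5% against 20.7%, and 26.3% against 29.8%). It was 3 among genes detected on all 6 arrays (8.11% against 23.2%) and 2 with the mean of the probes (5.26% against 18.2%). With a trended and robust variance it was 7 (18.4% against 24.8%). Of these, 1 was higher with no background correction, on all 6 arrays and with the trended variance, against 0 in the main setting. All genes tested gave 11.8%, 11.6% and 12% higher there. The lower calls were 4, 4, 10, 2, 2 and 6 in the same order as above. Their shares were 10.5%, 10.5%, 26.3%, 5.41%, 5.26% and 15.8%. All genes tested gave 12.7%, 10.1%, 26.8%, 11.6%, 9.46% and 12.8% lower. With 1 array left out the count did not rise, and the share of all genes tested was smaller. The 5 calls of JQ1 against GDC-0449 were 9 with no background correction (23.7%, against 57.3% of all genes tested). With scaling over the probes detected on all arrays they were 17 (44.7% against 56.7%). They were 11 with the trended variance (28.9% against 57.7%) and 12 by probe (19%, against 52.2% of all tested probes). Of these, 5, 15, 7 and 7 were higher, against 2 in the main setting. Their shares were 13.2%, 39.5%, 18.4% and 11.1%, against 28.1%, 30.5%, 28.3% and 25.6% over all. By probe 5 were lower (7.94%, against 26.5% of all tested probes), against 3 in the main setting. With 1 array left out the count moved both ways, and the share of all genes tested was smaller. Counting by probe and scaling over all probes were chosen after seeing the data. The cause of these differences was not tested.

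Some values that passed in the main setting or in the alternative changed sign. The difference of Psmd1 between JQ1 and GDC-0449 did so with scaling over the probes detected on all arrays (0.01). The JQ1 changes of Psme2 and Psmd5 did so with scaling over all probes (-0.03 and -0.0015). Those of Psmd7, Psmf1 and Faf1 did so with the mean of the probes (0.24, -0.05 and -0.51). Named genes that did not pass in the main setting had 1423 alternative values, whether or not these passed. Of them 108 had the other sign, those of Psmd7 and Faf1 included. Same-numbered replicates did not deviate together (correlations of 0.081, 0.007 and -0.016), so the numbers were not used to pair samples. With the replicate number as a block, 13 members were called with JQ1 against DMSO, 1 with GDC-0449 against DMSO and 5 between the compounds, 3 of these higher with JQ1 and 2 lower. With 1 array left out, the lone array of its group is assumed to vary like the other groups. The SE was largest for Psmd6, the 1 tested member not above background on all arrays, at 0.20 against a median of 0.10, and members not above background have no value here.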
